A study of Mus musculus with 6 samples.

Results

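Mitochondrial ribosomal protein genes were followed in regulatory T cells (Tregs) of mouse bone marrow with and without multiple myeloma. Members were all rows of the 6 gene tables whose name is Mrps or Mrpl followed by a number, read without regard to case because the tables print names in capitals, and 5 pseudogene rows were left out. This gave 77 of the 47643 annotated genes, 29 named for the small subunit (Mrps) and 48 named for the large subunit (Mrpl). All 77 are protein-coding in GENCODE release M21 on GRCm38 (mm10), where they lie on 17 chromosomes. RNA was sequenced from CD4+ cells carrying the FOXP3-GFP reporter, sorted from marrow of 3 mice injected with Vk*MYC cells (libraries 3, 4 and 5) and of 3 control mice (libraries 1, 3 and 5). Vk*MYC is a transplantable mouse model of multiple myeloma, a cancer of plasma cells that grows in the marrow. Both groups carry the reporter, and the labels give no age, sex, strain or time after injection and no treatment of the control mice. The series title names IFNRA1 (the interferon receptor subunit IFNAR1) and myeloma-driven Treg expansion, but no library is labelled as treated with an antibody or as lacking the receptor.

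Mitochondria keep their own ribosome, which makes the few inner membrane proteins of the respiratory chain and the ATP synthase that mitochondrial DNA encodes. Its RNA parts come from mitochondrial DNA, whereas every one of its proteins is encoded in the nucleus, made in the cytosol and imported. Some of these proteins belong to families shared with bacterial ribosomes and others are found only in mitochondrial ribosomes. Tregs are known to rely on oxidative metabolism more than conventional effector T cells do, and they lose suppressive function when respiration is impaired.

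Total expected counts, the estimates of reads per gene by the program RSEM, were 10240620 to 12008165 in myeloma libraries and 11688282 to 13314631 in control libraries. Differences between groups were tested with edgeR's quasi-likelihood test on 13235 genes with enough counts, with Benjamini-Hochberg adjustment over all of them and a threshold of 0.05, and fold changes are myeloma over control. Levels are CPM, counts brought to a common library total after scaling by the TMM method, and, where genes are compared with each other, TPM, which are also divided by transcript length. Of the 8 T cell and Treg markers 1 was higher (Cd3g) and none was lower, and their summed level was 4999 to 5228 CPM in myeloma and 4489 to 5910 CPM in control libraries. Of the 7 plasma cell markers tested 2 were higher, with sums of 283 to 539 CPM in myeloma and 145 to 220 CPM in control libraries. The plasma cell marker Tnfrsf17 was at 0 in every control library. Macrophage markers summed to 45.9 to 345 CPM in myeloma and 27.8 to 62.3 CPM in control libraries, with 3 of 8 higher. Of the 8 neutrophil markers 1 was higher, at sums of 138 to 463 CPM in myeloma and 63.6 to 180 CPM in control libraries. B cell markers summed to 28.4 to 71.1 CPM in myeloma and 46.0 to 296 CPM in control libraries, with 4 of 9 lower. Red cell markers summed to 3864 to 4796 CPM in myeloma and 6744 to 14775 CPM in control libraries, with 5 of 8 lower. Of 2 NK cell markers tested 1 was higher, and the NK cell list summed to 4.23 to 8.22 CPM in myeloma and 2.41 to 4.07 CPM in control libraries. Neither of 2 CD8 T cell markers was called, at sums of 13.5 to 22.4 CPM in myeloma and 11 to 13.8 CPM in control libraries. The sums of the macrophage, neutrophil, B cell and CD8 T cell markers overlapped between the groups, and those of the plasma cell, red cell and NK cell markers did not. The part of these other cells in the differences described here was not tested.

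The mitochondrial ribosomal protein genes were, as a group, slightly more abundant in Tregs from myeloma-bearing marrow. All 77 members had enough counts to be tested, at mean levels of 6.27 to 113 CPM. Of the 77, 16 rose (20.8%), where 6.33% of all genes tested rose, and 0 fell, where 4.69% of all genes fell. No member fell by DESeq2 or limma-voom, which called 6.35% and 4.43% of all genes lower, and none at an unadjusted p under 0.05, which 12.7% of all genes reached in that direction. The log2 fold change was above 0 in 74 members, against 52.0% of all genes tested, and its median was 0.33, a 1.26-fold difference, against a median of 0.02 over all genes. Values ran from -0.43 for Mrps27 to 0.85 for Mrpl52, and no member reached a 2-fold difference. Members have short transcripts, and short transcripts as a whole were higher in myeloma: with transcript length as a covariate 1 of the 77 rose (Mrpl52), where 3.24% of all genes rose. In bulk samples, a change in the kinds of cells present and a change in RNA per cell cannot be told apart.

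Summed over the 77 members, the level was 2279, 2331 and 2168 CPM in myeloma libraries 3, 4 and 5, against 1794, 1849 and 1787 CPM in control libraries 1, 3 and 5. Every myeloma sum lay above every control sum, at 2259 ± 83.4 CPM in myeloma and 1810.0 ± 34.0 CPM in control (SD, n = 3 each). The members' counts were 0.228, 0.233 and 0.217% of the TMM-scaled library totals in myeloma and 0.179, 0.185 and 0.179% in control libraries. These are not shares of reads, because TMM-scaled CPM do not add up to the same total in every library. All genes tested summed to 1014170 to 1048860 CPM in myeloma and 958396 to 1002010 CPM in control libraries. Gene by gene, all 3 myeloma values lay above all 3 control values for 39 of the 77 members (50.6%), where 17.3% of all genes tested showed such a gap. For Mrps27 and Mrps5 all 3 myeloma values lay below all 3 control values, and 16.0% of all genes were separated in that direction. An unadjusted p under 0.05 with a higher level was found for 37 members, where 15.3% of all genes reached it.

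**Figure D1:**
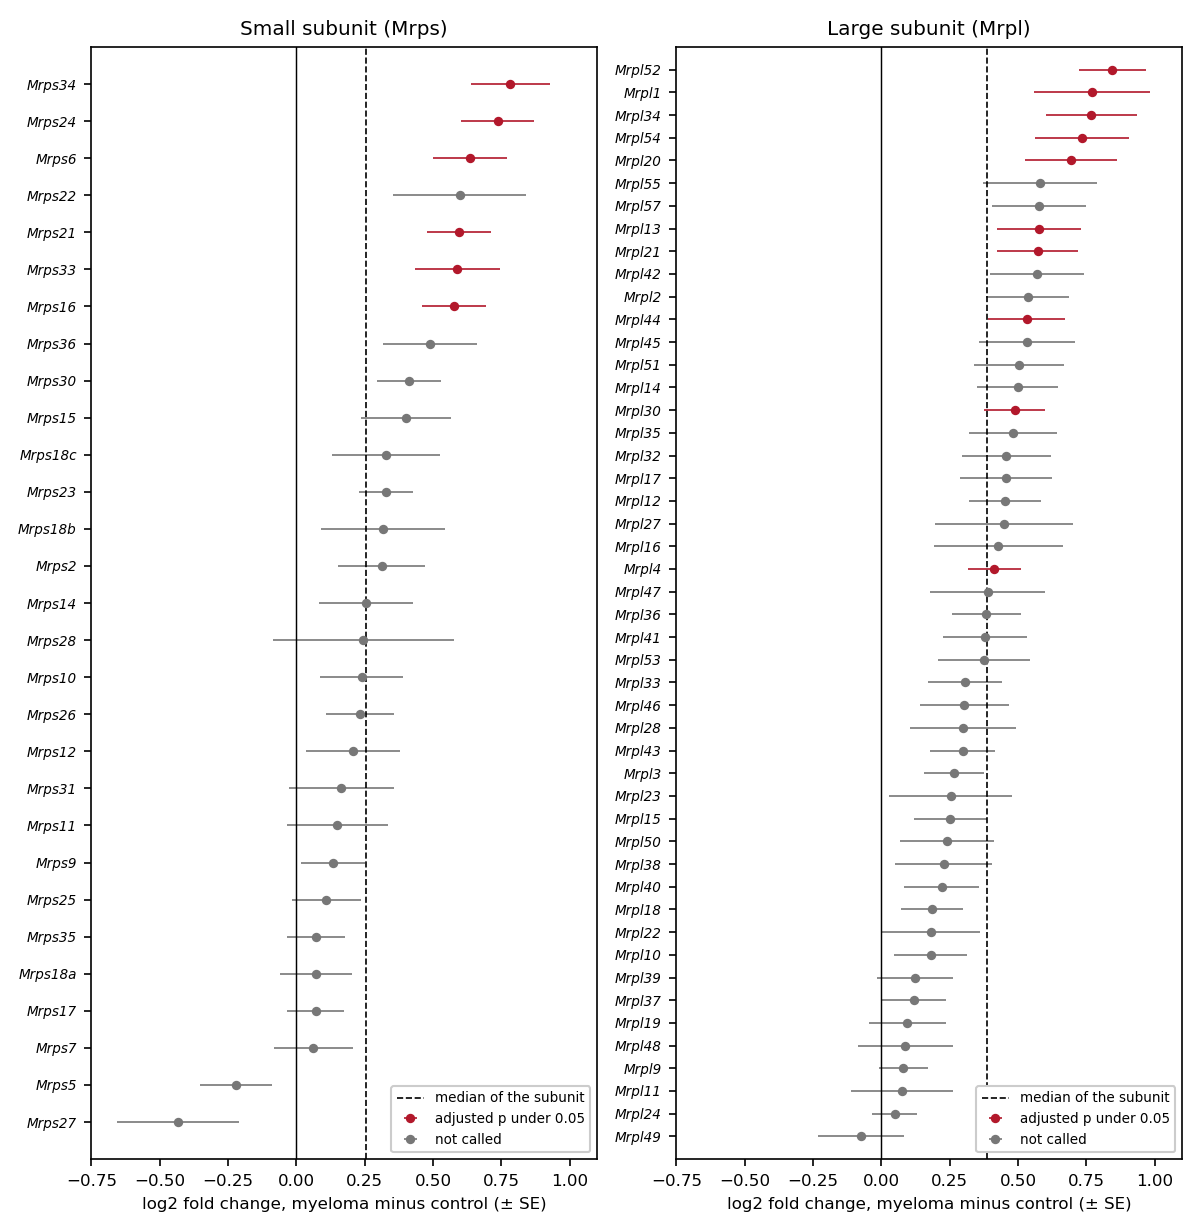
Log2 fold change (myeloma minus control on the log2 scale) with its SE for each of the 29 small (left) and 48 large subunit members (right); red points passed the adjusted p threshold of 0.05, and dashed lines mark the medians, 0.25 and 0.39. All but 3 members lie above 0, and the 16 red points span folds of 1.33 to 1.80.

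Within the large subunit, 10 of 48 members rose (20.8%) and none fell. Mrpl52 changed most of all members. It encodes a mitochondria-specific protein of the central protuberance, the crown of the large subunit that faces the small subunit, and lies at chr14:54426909-54429756, plus strand. Its level was 56.1, 53.4 and 46.1 CPM in the myeloma libraries, against 25.7, 32.2 and 28.7 CPM in the control libraries. The lowest myeloma value stood clear of the highest control value (log2 fold change 0.85, SE 0.12, adjusted p = 0.00461), a 1.80-fold difference. Over all 6 libraries it was also the member with the highest mean level per length (248 TPM), at 303 ± 37.6 TPM in myeloma and 193 ± 20.7 TPM in control (SD, n = 3 each). In control Mrpl24 was higher per length, at 209 ± 8.83 TPM (SD, n = 3). The promoter of Mrpl52, from 250 bases before to 50 bases after the start site in RefSeq on GRCm38.p6 (chr14:54426659-54426958, plus strand), is shown because no other member changed as much. Capitals mark both copies of the ETS motif CCGGAAG, read here from the other strand as CTTCCGG.
Mrpl52: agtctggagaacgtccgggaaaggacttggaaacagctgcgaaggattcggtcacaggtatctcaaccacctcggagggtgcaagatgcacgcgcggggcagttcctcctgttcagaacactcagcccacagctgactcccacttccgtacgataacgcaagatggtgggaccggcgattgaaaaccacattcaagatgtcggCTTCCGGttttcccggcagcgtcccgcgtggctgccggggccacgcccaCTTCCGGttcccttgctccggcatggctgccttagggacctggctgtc

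Among the bacterial-family proteins of the large subunit, Mrpl34 encodes a small basic protein that binds the ribosomal RNA core. It had 23.0, 31.1 and 22.6 CPM in the myeloma libraries, against 14.1, 14.2 and 16.6 CPM in the control libraries. The groups did not overlap, and myeloma library 4 was the highest (log2 fold change 0.77, SE 0.17, adjusted p = 0.0219). Mrpl30, whose product is the counterpart of bacterial protein L30, had 54.6, 51.8 and 48.3 CPM in the myeloma libraries, against 33.2, 41.7 and 35.4 CPM in the control libraries, again without overlap (log2 fold change 0.49, SE 0.11, adjusted p = 0.0276). Mrpl4 encodes the counterpart of bacterial L4, which in bacteria extends a loop into the tunnel through which the new chain leaves. Its level was 42.4, 39.8 and 38.2 CPM in the myeloma libraries, against 30.0, 29.3 and 31.1 CPM in the control libraries. This was the smallest called difference, 1.33-fold, with narrow spread in both groups (log2 fold change 0.41, SE 0.10, adjusted p = 0.0303).

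Mrpl20 and Mrpl13 encode counterparts of bacterial proteins that bind the large ribosomal RNA early in assembly. Mrpl20 had 25.7, 29.0 and 28.3 CPM in the myeloma libraries, against 19.7, 18.6 and 13.1 CPM in the control libraries, with control library 5 the lowest of the 6 (log2 fold change 0.69, SE 0.17, adjusted p = 0.0334). Mrpl13 had 41.1, 37.1 and 28.8 CPM in the myeloma libraries, against 22.4, 26.9 and 22.5 CPM in the control libraries, with the gap between groups set by myeloma library 5 and control library 3 (log2 fold change 0.58, SE 0.15, adjusted p = 0.0441). Mrpl21, a further bacterial-family protein, rose 1.49-fold (log2 fold change 0.57, adjusted p = 0.0412). Mrpl1 encodes the protein of a mobile stalk that in bacteria helps release spent transfer RNA. Its level was 16.8, 14.7 and 21.7 CPM in the myeloma libraries, against 12.4, 8.59 and 10.2 CPM in the control libraries. The groups were apart, but the spread was wide and the adjusted p the highest of the 16 (log2 fold change 0.77, SE 0.21, adjusted p = 0.0491), lost in each of the 6 fits that left out 1 library.

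Of the mitochondria-specific proteins of the large subunit, Mrpl54 and Mrpl44 rose besides Mrpl52. Mrpl54 had 30.3, 21.4 and 26.9 CPM in the myeloma libraries, against 16.0, 17.8 and 13.6 CPM in the control libraries, all myeloma values being higher (log2 fold change 0.73, SE 0.17, adjusted p = 0.0283). Mrpl44, whose product carries a fold related to the enzyme RNase III and variants of which cause a heart muscle disease in humans, was 1.45-fold higher (log2 fold change 0.53, adjusted p = 0.0444).

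Within the small subunit, 6 of 29 members rose (20.7%) and none fell. Mrps24 encodes the counterpart of bacterial S3, which in bacteria sits at the channel where messenger RNA enters, and lies at chr11:5703983-5715680, minus strand. It had 41.4, 43.2 and 44.1 CPM in the myeloma libraries, against 20.9, 29.2 and 27.2 CPM in the control libraries. The myeloma values lay close together and all above control (log2 fold change 0.74, SE 0.13, adjusted p = 0.0116). The gene shares 15.4% of its exon bases with Urgcp. Its RefSeq start lies inside the GENCODE gene, 7979 bases from the GENCODE start. The RefSeq promoter window (chr11:5707652-5707951, minus strand) is shown because it holds a YY1 motif, AAGATGGCG, in capitals, downstream of the start, where the window of Mrpl52 holds ETS motifs.
Mrps24: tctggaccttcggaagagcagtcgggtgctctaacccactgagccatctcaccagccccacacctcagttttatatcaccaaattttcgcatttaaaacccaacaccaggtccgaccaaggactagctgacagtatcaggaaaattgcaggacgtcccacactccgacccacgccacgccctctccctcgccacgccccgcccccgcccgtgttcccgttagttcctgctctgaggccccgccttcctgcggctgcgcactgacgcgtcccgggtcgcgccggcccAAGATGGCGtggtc

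Mrps34 encodes a mitochondria-specific protein needed for a stable small subunit, and variants of it cause Leigh syndrome in humans. It had 40.6, 39.5 and 35.4 CPM in the myeloma libraries, against 18.1, 23.8 and 25.2 CPM in the control libraries. The difference was the largest of the small subunit, 1.72-fold, with no overlap (log2 fold change 0.78, SE 0.14, adjusted p = 0.0116). Of its exon bases, however, 63.4% are shared with Mapk8ip3 and 37.0% with Nme3, and the library kit does not mark strand, so its reads cannot be told apart from theirs in these stretches.

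Mrps21 and Mrps6 encode proteins of the platform, the part of the small subunit that holds the messenger RNA as it leaves the decoding site. Mrps21, the small subunit member with the highest level per length (168 TPM over all libraries), had 36.2, 42.9 and 35.8 CPM in the myeloma libraries, against 23.6, 26.4 and 26.0 CPM in the control libraries. All 3 myeloma values were higher (log2 fold change 0.60, SE 0.12, adjusted p = 0.0151). Mrps6 had 25.1, 21.4 and 26.0 CPM in the myeloma libraries, against 16.5, 15.1 and 15.1 CPM in the control libraries, with the control values close together (log2 fold change 0.64, SE 0.14, adjusted p = 0.0216). It shares 19.9% of its exon bases with Gm49711 and 10.4% with Slc5a3. Mrps16, whose bacterial counterpart helps fold the ribosomal RNA during assembly, had 39.4, 35.4 and 32.4 CPM in the myeloma libraries, against 23.3, 25.4 and 23.2 CPM in the control libraries. These groups stood well apart (log2 fold change 0.58, SE 0.12, adjusted p = 0.0174). The mitochondria-specific Mrps33 had 27.3, 32.5 and 23.2 CPM in the myeloma libraries, against 20.1, 16.8 and 18.1 CPM in the control libraries, a gap that was narrow between myeloma library 5 and control library 1 (log2 fold change 0.59, SE 0.15, adjusted p = 0.0424).

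**Figure D2:**
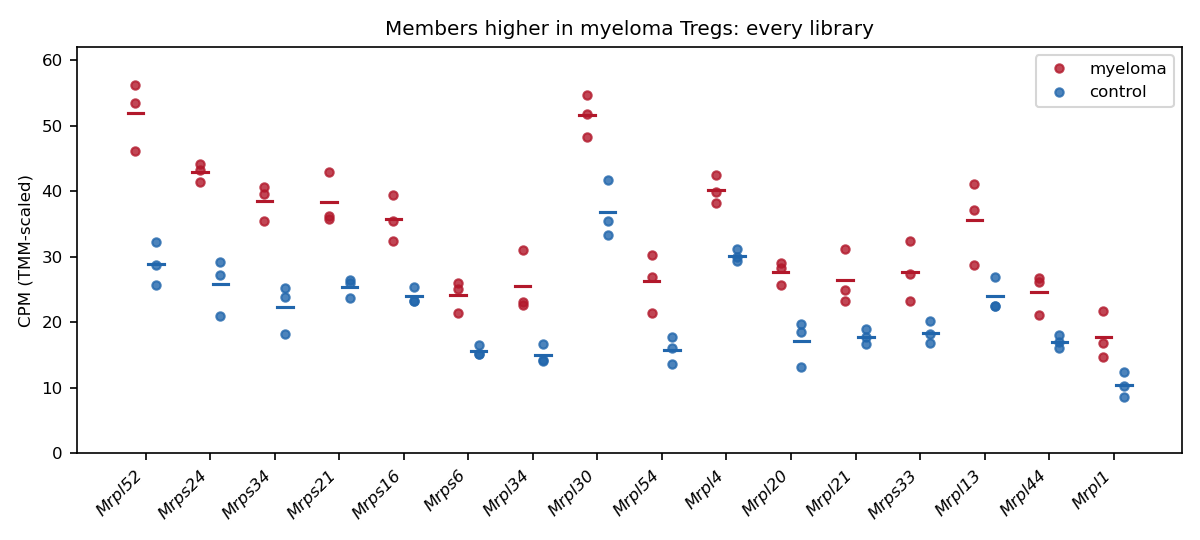
Level in CPM of each of the 16 called members in every library, myeloma points (red) left of control points (blue), with bars at the group means and genes in order of adjusted p. For each of the 16, all 3 myeloma points lie above all 3 control points.

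Most members did not pass the test, and the border between called and not called was not sharp: 15 members that were not called had a log2 fold change at or above that of Mrpl4. Mrps23 and Mrpl33, high in level per length at 116 and 141 TPM, had log2 fold changes of 0.33 (adjusted p = 0.0635) and 0.31 (adjusted p = 0.177). Mrpl11, whose bacterial counterpart forms the base of the stalk that recruits elongation factors, was the member with the lowest level per length (7.77 TPM) and had a log2 fold change of 0.07 (adjusted p = 0.839), with a sign that turned without myeloma library 4 or control library 5. Mrps31, a mitochondria-specific protein, had 0.16 (adjusted p = 0.622).

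The 3 members with a log2 fold change below 0 were Mrps27, Mrps5 and Mrpl49, and none passed the test. Mrps27 encodes a mitochondria-specific protein with pentatricopeptide repeats, a fold that binds RNA. It had 12.2, 7.54 and 11.3 CPM in the myeloma libraries, against 15.2, 14.6 and 12.3 CPM in the control libraries. All myeloma values were lower, myeloma library 4 most of all (log2 fold change -0.43, SE 0.22, adjusted p = 0.243). Mrps5, named here after its values were seen, encodes the counterpart of bacterial S5 at the messenger RNA entry site. It had 29.5, 23.8 and 28.3 CPM in the myeloma libraries, against 29.9, 35.7 and 29.6 CPM in the control libraries. The groups were separated only by the narrow gap between myeloma library 3 and control library 5 (log2 fold change -0.22, SE 0.13, adjusted p = 0.311). Mrpl49, a mitochondria-specific protein of the large subunit, had a log2 fold change of -0.07 (adjusted p = 0.807).

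The question of small against large subunit was addressed with sums per library. Small subunit members summed to 825, 825 and 779.8 CPM in myeloma libraries and 656, 675 and 653 CPM in control libraries, a mean of 810 ± 26.1 CPM in myeloma and 661 ± 11.9 CPM in control (SD, n = 3 each). Large subunit members summed to 1454, 1506 and 1388 CPM in myeloma libraries and 1138, 1174 and 1134 CPM in control libraries, a mean of 1449 ± 59.2 CPM in myeloma and 1149 ± 22.1 CPM in control (SD, n = 3 each). Both sums were higher in every myeloma library than in any control library. The log2 ratio of small to large was -0.82, -0.87 and -0.83 in myeloma and -0.80, -0.80 and -0.80 in control, so the ratio was lower in every myeloma library, on average by 0.04. On TPM the log2 ratio was -0.77, -0.73 and -0.74 in myeloma and -0.69, -0.76 and -0.69 in control, and the groups overlapped. With 3 against 3 libraries a two-sided exact permutation test cannot go below p = 0.1, so no test of the ratios is given.

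**Figure D3:**
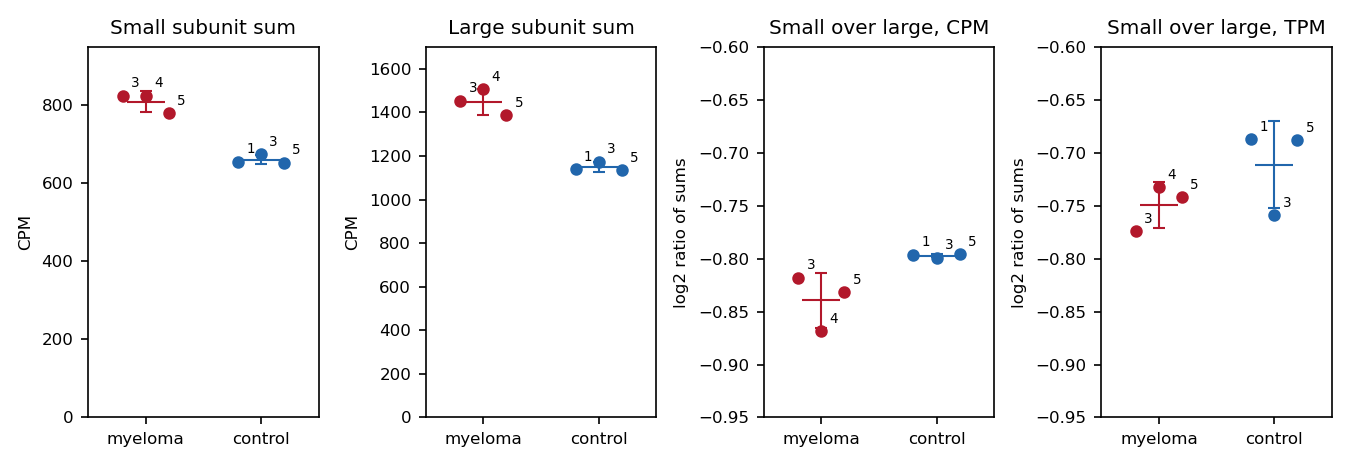
Summed CPM of the small and of the large subunit members and the log2 ratio of small to large on CPM and on TPM, per library (numbered points), myeloma left of control, with the mean and SD (n = 3). Both sums are higher in all 3 myeloma libraries, and the ratio is separated by group on CPM but overlaps on TPM.

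The median log2 fold change was 0.25 over the 29 small subunit members and 0.39 over the 48 large subunit members, a difference of -0.13. Leaving out 1 library gave differences of -0.16 to -0.050, with -0.050 without myeloma library 4 and -0.073 without myeloma library 5. Shares of members called were alike, 20.7% and 20.8%. Groups were separated with myeloma above in 11 small (37.9%) and 28 large subunit members (58.3%). Names do not fully follow place: the products of Mrps30 and Mrps18a sit in the large subunit of the mammalian ribosome, and that of Mrps36 is now known as part of a metabolic enzyme complex. None of the 3 was called, at log2 fold changes of 0.41, 0.07 and 0.49, and with members placed by structure the medians were 0.25 for 26 small and 0.39 for 50 large subunit members.

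The medians were close between members of different ancestry. Of the 48 bacterial-family members 11 rose (22.9%), with a median log2 fold change of 0.32. Of the 29 mitochondria-specific members 5 rose (17.2%), with a median of 0.33. Over all members 20.8% rose, and over all genes tested 6.33%. By site, 2 of 5 platform proteins rose (median 0.40), 1 of 3 at messenger RNA entry and decoding (0.21), 1 of 4 stalk proteins (0.32), 1 of 5 of the central protuberance (0.23) and 0 of 6 around the tunnel exit (0.32). Each class is too small for its count to be told apart from the 20.8% of all members, and no test of a difference between classes was made. Mrps12, the counterpart of the bacterial decoding protein S12, and Mrps11 of the platform, both named after their values were seen, had log2 fold changes of 0.21 and 0.15 without passing the test, and with transcript length as a covariate both were below 0.

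Transcript length moved with these differences. RSEM's transcript length had a median of 1037 bases over the members (946 small, 1069 large) and 2349 bases over all genes tested, and 72 of the 77 members were shorter than that. Across all genes tested, log2 fold change and length had a Spearman correlation of -0.35, and across the 77 members -0.44 (29 small -0.53, 48 large -0.38). These points share the same 6 libraries and are given as a description. Within each library, a gene's deviation from its mean level over the 6 libraries was set against its length. The Spearman correlation was -0.24, -0.31 and -0.16 in myeloma libraries and 0.21, 0.18 and 0.31 in control libraries. Short transcripts thus tended to lie above their mean level in each myeloma library and below it in each control library. A gene's deviations cancel out over the 6 libraries, so the values of the groups are not independent. The mean fragment length, taken from the difference between transcript and effective length, 197, 204 and 214 bases in myeloma and 196, 208 and 202 bases in control libraries, overlapped between the groups.

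Among transcripts under 800 bases the median log2 fold change was 0.49 over 25 members and 0.32 over 1063 genes tested, and 10 of the 25 members rose, where 13.4% of those genes did. From 800 to 1200 bases the medians were 0.28 over 24 members and 0.27 over 1243 genes, and 3 of the 24 members rose, where 14.6% of the genes did. From 1200 to 2000 bases they were 0.23 over 20 members and 0.12 over 3093 genes, and 2 of the 20 rose, where 7.24% did. From 2000 bases upwards they were 0.28 over 8 members and -0.08 over 7836 genes, and 1 of the 8 rose, where 3.7% did. The members' median was thus close to that of genes in the same length class in 1 class and higher in 3 classes. The class from 2000 bases upwards has no upper limit and holds 7836 genes, so it does not compare genes of like length. By subunit, the medians under 800 bases were 0.49 for 9 small and 0.47 for 16 large subunit members, and from 1200 to 2000 bases 0.16 for 7 small and 0.27 for 13 large subunit members.

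When length entered the fit as a covariate, through a smooth curve fitted over all genes in each library, the call of Mrpl52 remained (log2 fold change 0.55, adjusted p = 0.0325), and 0 members fell, where 2.0% of all genes fell. The log2 fold change was above 0 in 55 members, against 46.9% of all genes, with a median of 0.11 (small 0.04, large 0.16) against -0.02 over all genes. Mrps34 then had 0.52 (adjusted p = 0.0862), Mrps24 0.44 (adjusted p = 0.103) and Mrpl1, with its long transcript, 0.77 (adjusted p = 0.0615). Mrps5 had -0.45 (adjusted p = 0.0947). A straight-line description over the members gave small minus large -0.10 at equal length, against -0.09 for the means without length, and -0.15 per doubling of length, the same slope as over all genes tested. A curve fitted to length also takes out any difference in biology that goes with length.

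**Figure D4:**
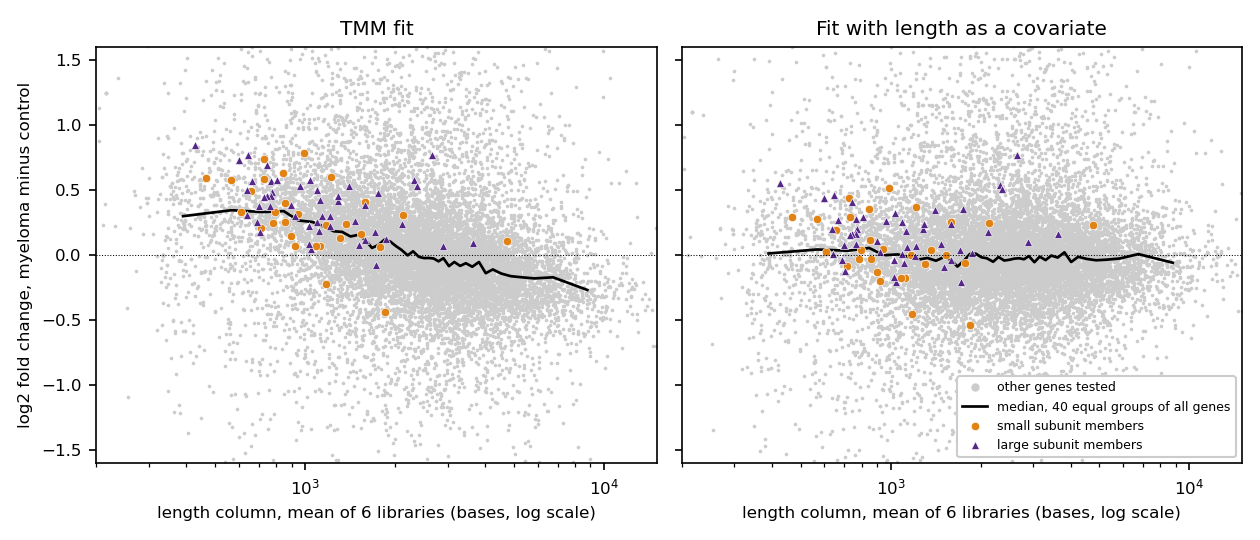
Log2 fold change (myeloma minus control) against transcript length (bases, log axis) in the TMM fit (left) and with length as a covariate (right), for all genes tested (grey), small (orange circles) and large subunit members (purple triangles); the line is the median in 40 equal groups of all genes, and the vertical axis leaves out more extreme grey points. On the left the line falls with length and most members lie above it, and on the right the line is near 0 and 55 of 77 members lie above 0.

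On the authors' TPM scale fewer members were separated. Summed TPM of the members was 4290.2, 4216 and 3704 in myeloma libraries and 3594, 3504 and 3729 in control libraries, and the groups overlapped through myeloma library 5. The mean TPM was higher in myeloma for 53 of 77 members, against 29.6% of all genes tested. The TPM groups were apart with myeloma above for 15 members, where 6.25% of all genes were, and 9 of the 15 are among the 16 called. They were apart with myeloma below for 4 members, where 30.8% of all genes were, namely Mrps27, Mrps5, Mrpl9 and Mrpl24. Mrpl24, whose product lies at the tunnel exit, shows how the scales differ. It had 199.6, 167 and 149.8 TPM in the myeloma libraries, against 201, 209 and 218 TPM in the control libraries, all myeloma values being lower, while on CPM its log2 fold change was 0.05 (adjusted p = 0.749) and turned below 0 with library sizes alone, with an effective-length offset and with the length covariate.

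Of the 16 calls, 10 remained with library sizes alone in place of TMM factors, where 4.78% of all genes rose, 14 with DESeq2 (7.27%) and 11 with limma-voom (5.98%). With RSEM's effective length as an offset 8 of the 16 remained (4.65%). Leaving out 1 library, with the share of all genes that rose in brackets, left 3 of the 16 without myeloma library 3 (3.3%), 3 without myeloma library 4 (2.89%) and 14 without myeloma library 5 (6.15%). It left 7 without control library 1 (4.71%), 4 without control library 3 (2.42%) and 5 without control library 5 (3.24%). Mrpl52 was called in every one of the 6, and Mrps24 in all but the fit without myeloma library 4 (adjusted p = 0.0508). Mrps34 was lost without myeloma library 3 (0.0526) or 4 (0.0532). Mrps21 was lost without myeloma library 4 (0.0618) or control library 3 (0.0562). Mrpl4, Mrpl13, Mrpl20, Mrpl21, Mrpl44 and Mrps33 were each called in only 1 of the 6. Of the members, 17 share 10% or more of their exon bases with another gene, and without them 13 of 60 rose, with a median log2 fold change of 0.35. RSEM divides reads between a gene and its processed copies by a model, so values of members with pseudogenes are less certain.

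Many members lie head to head with a gene that runs the other way. By the gene starts in GENCODE, a start within 1000 bases of that of an oppositely directed gene was found for 33 members. Tested were 28 such neighbours that are not members. In some pairs, such as Mrpl43 with Twnk and Mrps11 with Mrpl46, the genes overlap at their starts, and the library kit does not mark strand. Of these 4 rose and 0 fell, against 6.33% and 4.69% of all genes. Among the 28, 15 had a log2 fold change above 0, and their median was 0.04, where the median of the members with a tested neighbour was 0.35. The 4 that rose have transcripts of 563 bases (Ndufs6) to 1128 bases (Mitd1), a range that also holds Ndufb5 (800 bases), which did not pass. Other neighbours are longer, up to 3664 bases for Ighmbp2, and the part of length in this contrast was not tested. Mitd1, a gene of cell division whose start lies 66 bases from that of Mrpl30, had 62.8, 55.5 and 44.4 CPM in the myeloma libraries, against 30.7, 26.6 and 30.8 CPM in the control libraries (log2 fold change 0.88, SE 0.14, adjusted p = 0.00661). Both genes of this pair rose, and Mitd1 was also called in all 6 fits that left out 1 library and with the length covariate (adjusted p = 0.0414). Psma2, a proteasome subunit 75 bases from Mrpl32, rose (log2 fold change 0.49, adjusted p = 0.0113) but was lost without myeloma library 3 (0.0531) or 4 (0.0501) and with the length covariate (0.208), while Mrpl32 had 0.46 (adjusted p = 0.105). Fau, which encodes a cytosolic ribosomal protein fused to a ubiquitin-like one, rose 59 bases from Mrpl49 (log2 fold change 0.44, adjusted p = 0.0390), while Mrpl49 had -0.07. The call of Fau was lost with library sizes alone (0.0704), with the length covariate (0.499) and in 5 of the 6 fits that left out 1 library (0.0849 to 0.129), all but the one without myeloma library 5 (0.0129).

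Ndufs6, a subunit of respiratory complex I, starts 29 bases from Mrpl36 by the GENCODE starts. Mrpl36, a small protein of the large subunit, was named after its values were seen. Its RefSeq start lies 2467 bases from the start of Ndufs6. Ndufs6 had 34.3, 31.7 and 26.3 CPM in the myeloma libraries, against 20.4, 23.4 and 21.5 CPM in the control libraries, all myeloma values being higher (log2 fold change 0.50, SE 0.13, adjusted p = 0.0453), and Mrpl36 had a log2 fold change of 0.38 (adjusted p = 0.0859). The call of Ndufs6 was lost with DESeq2 (adjusted p = 0.0646), limma-voom (0.0534), library sizes alone (0.0749), the effective-length offset (0.0677) and the length covariate (0.452). It was also lost in 5 of the 6 fits that left out 1 library (0.106 to 0.151), all but the one without myeloma library 5 (0.0229). Ptcd2, a mitochondrial RNA-processing protein 81 bases from Mrps27, had 0.04 (adjusted p = 0.903), with a sign that turned in 4 other fits. Mrps11 and Mrpl46, a member of each subunit, start 412 bases apart and had log2 fold changes of 0.15 and 0.30, neither called. Sars2, a mitochondrial aminoacyl-tRNA synthetase 172 bases from Mrps12, had 0.47 (adjusted p = 0.194). The window of Mrps27 (chr13:99344536-99344835, plus strand), again 250 bases before to 50 after the start in RefSeq on GRCm38.p6, is shown as that of the member with the lowest log2 fold change, and it also holds the GENCODE start of Ptcd2. Capitals mark an ETS motif and a YY1 motif.
Mrps27: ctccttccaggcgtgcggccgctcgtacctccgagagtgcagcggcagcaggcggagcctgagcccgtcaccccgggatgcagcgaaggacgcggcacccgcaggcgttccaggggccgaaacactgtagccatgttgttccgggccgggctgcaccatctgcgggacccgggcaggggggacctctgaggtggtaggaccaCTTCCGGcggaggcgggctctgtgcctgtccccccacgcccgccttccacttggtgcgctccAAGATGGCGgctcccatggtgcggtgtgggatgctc

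RefSeq promoter windows were matched for 68 of the 77 members. The RefSeq start lay within 100 bases of the GENCODE gene start in 49 of the 68 and more than 1000 bases from it in 4, among them Mrps24 and Mrpl36. The windows were searched on both strands for motifs of factors known to drive nuclear genes of mitochondria. The ETS motif CCGGAAG, bound among others by GABP, was present in 25 of the 68 (36.8%), against 21.3% of 9552 genes tested with a window and 8.86% of all 32851 windows. The NRF1 motif (GCGCA, any base, GCGC) was present in 13 (19.1%), against 11.9% of genes tested and 4.6% of all windows. The YY1 motif AAGATGGCG was present in 8 (11.8%), against 3.75% and 1.4%. The E-box CACGTG, bound among others by MYC, was present in 5 (7.35%), against 11.8% and 7.15%. Both ETS and NRF1 motifs were found in 4 members and none of the 4 motifs in 26. A match is a description of these letters, not a bound site. The median log2 fold change was 0.33 with and 0.31 without an ETS motif, 0.46 and 0.31 for NRF1, 0.27 and 0.33 for YY1, and 0.38 and 0.32 for the E-box.

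Other genes of mitochondrial translation were called higher at about the share of all genes, and lower at a smaller share. In 5 lists with 93 genes tested, 7 rose and 2 fell (7.53% and 2.15%), where 6.33% and 4.69% of all genes did. The median log2 fold change was 0.05. These 93 genes had a median transcript length of 1991 bases, against 1037 bases for the 77 members, and the part of length in this contrast was not tested. Of the 5 ribosomal proteins with other names, Gadd45gip1, a large subunit protein, rose. It had 31.3, 36.8 and 40.7 CPM in the myeloma libraries, against 20.1, 18.4 and 25.0 CPM in the control libraries, without overlap (log2 fold change 0.78, SE 0.15, adjusted p = 0.0155), and kept its call with the length covariate (adjusted p = 0.0224), but lost it without myeloma library 4 (0.0625) or control library 3 (0.0711). Its fellow members did not pass: Dap3, a GTP-binding small subunit protein, had -0.05 (adjusted p = 0.735), Ptcd3, a pentatricopeptide protein, -0.19 (0.231), Chchd1 0.47 (0.130) and Aurkaip1 0.33 (0.114).

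Of 17 translation factors and messenger RNA-binding proteins 1 rose and 1 fell. Slirp, which with Lrpprc protects mitochondrial messenger RNA, had 24.5, 22.3 and 22.1 CPM in the myeloma libraries, against 12.7, 13.1 and 12.3 CPM in the control libraries. The myeloma values were well above control (log2 fold change 0.85, SE 0.14, adjusted p = 0.00689), and the call held in all 6 fits that left out a library, though not with the length covariate (adjusted p = 0.0539). Its partner Lrpprc did not pass (log2 fold change -0.15, adjusted p = 0.455). Metap1d, which removes the first methionine of new mitochondrial proteins, fell (log2 fold change -0.62, adjusted p = 0.0303) and was lost in every such fit except the one without control library 5. The elongation factors Tufm and Gfm1 had log2 fold changes of 0.31 (adjusted p = 0.140) and 0.09 (adjusted p = 0.665).

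Of 30 genes of ribosome assembly and ribosomal RNA modification 3 rose, with a list median of -0.04. They were Nsun4, a methyltransferase that also joins the subunits (log2 fold change 0.58, adjusted p = 0.0209), the helicase Ddx28 (log2 fold change 0.95, adjusted p = 0.0321) and the large subunit assembly factor Malsu1 (log2 fold change 0.75, adjusted p = 0.0361). Each was lost in at least 4 of the 6 fits that left out a library, among them those without myeloma libraries 3 and 4 and control libraries 3 and 5. None of 22 mitochondrial aminoacyl-tRNA synthetases was called (median 0.02). In transcription and RNA processing 2 of 19 rose and 1 fell. Pnpt1, an exonuclease of mitochondrial RNA, had 57.2, 52.1 and 52.4 CPM in the myeloma libraries, against 34.8, 37.6 and 36.5 CPM in the control libraries, apart in every library (log2 fold change 0.57, SE 0.09, adjusted p = 0.00746), and was called in all 6 such fits and with the length covariate (adjusted p = 0.0143). Mterf1a, a termination factor, rose (log2 fold change 0.58, adjusted p = 0.0413), Tfb2m, a transcription initiation factor, fell (log2 fold change -0.44, adjusted p = 0.0427), and each was called in 0 or 1 of those fits.

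Of 13 regulators known to act on nuclear genes of mitochondria 1 rose and 1 fell (7.69% each), where 6.33% and 4.69% of all genes did. Atf5, a factor of the mitochondrial stress response, rose (log2 fold change 1.21, SE 0.25, adjusted p = 0.0197), and Gabpb2, a GABP subunit, fell (log2 fold change -0.35, adjusted p = 0.0353). Gabpb2 was lost with the effective-length offset (0.0600), with the length covariate (0.337) and in 5 of the 6 fits that left out 1 library (0.0551 to 0.131), all but the one without control library 1 (0.0242). Atf5 was lost without myeloma library 4 (0.0645) and without control library 3 (0.0713) or 5 (0.0705). Nrf1 had a log2 fold change of -0.23 (adjusted p = 0.213), Gabpa -0.18 (0.319), Yy1 0.12 (0.361), Ppargc1b -0.62 (0.103), and Myc -0.04 (0.902), the last with a sign that turned in 4 other fits. Tfam, which packs mitochondrial DNA, had 0.27 (adjusted p = 0.120), and the mitochondrial RNA polymerase Polrmt -0.13 (0.486). Foxp3 itself did not pass (log2 fold change -0.15, adjusted p = 0.385).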

How the data were processed

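RNA of CD4+ FOXP3-GFP+ bone marrow cells from 3 myeloma and 3 control mice was measured by RNA-seq. The labels' protocols give the RNeasy Micro kit for extraction and NEBNext Ultra RNA for the libraries. Per the submitters' processing notes, Picard, STAR, RSEM, DESeq2 and the build mm10 were used, without versions. The deposited tables hold the authors' expected counts per gene, which are not normalized. Besides them stand the authors' TPM and FPKM, which RSEM divides by effective length and library total. Here TPM served for levels, and FPKM was not used. The deposited transcript and effective lengths are those of RSEM.

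Of 47643 gene IDs, 47224 matched the reference names and 419 kept the tables' names. Expected counts were rounded and filtered with filterByExpr (minimum count 10, minimum total 15). After TMM scaling, glmQLFit and glmQLFTest were run in edgeR 4.0.16 (R 4.3.3), with Benjamini-Hochberg adjustment over 13235 genes, and adjusted p-values are from this fit unless another is named. The SE is the size of the log2 fold change divided by the square root of F. The biological coefficient of variation was 0.202. The design text speaks of 3 mice per group, but no label ties a library to a mouse, and the p-values cover only the variation among these 6 libraries. Replicate numbers 3 and 5 occur in both groups, with correlations of deviations of 0.0295 and 0.0974. No label says whether equal numbers mark paired samples, and the main fit does not pair them.

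Alternatives in scaling were RLE factors, upper-quartile factors and library sizes alone. Filters tried were none and a minimum of 1 CPM in 3 libraries. Other tests were DESeq2 1.42.0, limma-voom 3.58.1 and a robust dispersion. Length was treated with an effective-length offset or as a covariate (per library, a spline of log2 length with 4 degrees of freedom, entered as an offset). Immunoglobulin, haemoglobin and mitochondrially encoded genes were removed, the replicate number was used as a block, and each library was left out in turn. Placement by structure, removal of members with 10% or more exon overlap, and length classes were added after the data were examined. The main test was also run on simulated counts with the same dispersion for all genes and no trend with length. That check says nothing about the trend with length seen here. Members and lists were chosen with earlier results of these data known, so no list has a p-value. Among members the text names all that were called, and per subunit the 3 with the highest and the 2 with the lowest TPM and those with the largest and smallest fold change. It adds up to 3 per subunit and direction with separated groups and an unadjusted p under 0.05. Of other genes it names a set of translation genes and regulators and up to 3 called genes per list. Head-to-head neighbours and the members beside them were named after their values were seen. Positions are from GENCODE release M21 on GRCm38 and promoter windows from RefSeq on GRCm38.p6.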

Additional observations from a re-analysis of the deposited data

How the results depend on the processing

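Of the 77 members 16 rose and 0 fell, beside 838 and 621 of all genes. The 0 held under every setting tried. With library sizes alone 1004 genes fell, 10 members rose and the members' median log2 fold change was 0.25. Without a filter 1337 genes rose and 1102 fell. With an effective-length offset 372 genes fell, 9 members rose, the members' median was 0.39, the small minus large difference was -0.10, and 4 other mitochondrial translation genes rose and 0 fell. With the length covariate 429 genes rose and 265 fell, 1 member rose, the members' median was 0.11, and 2 other translation genes rose and 1 fell. With limma-voom the small minus large difference was -0.10 and 1 other translation gene fell. RLE and upper-quartile factors, the stricter filter, DESeq2, robust dispersion and removal of immunoglobulin, haemoglobin and mitochondrially encoded genes moved none of these counts by more than 1.5 times. Except for the length covariate, which removes the trend with length by construction, the causes of these shifts were not tested.

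With the replicate number as a block, where the contrast rests on numbers 3 and 5, 362 genes rose and 142 fell, 1 member rose (Mrpl52), the small minus large difference was -0.069, and 1 other translation gene rose and 0 fell. No label says whether equal numbers mark paired samples. The block takes up degrees of freedom, and the part of that in the lost calls was not tested.

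In the fits that left out 1 library, 331 to 836 genes rose and 123 to 546 fell, and 3 to 18 members rose. The members' median was 0.27 to 0.39, the small minus large difference -0.16 to -0.050, and other translation genes numbered 2 to 9 higher and 0 to 1 lower. The difference in the log2 ratio of the summed subunits was -0.05 to -0.03, against -0.04 with all libraries. Counts depended on which library was left out: 836 genes and 18 members rose without myeloma library 5, and 331 genes and 4 members without control library 3. These fits have fewer libraries, and the part of that in the counts was not tested.

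Signs turned for genes near 0. Mrpl24 was at -0.023 with library sizes alone, -0.040 with the effective-length offset and -0.20 with the length covariate. With that covariate Mrps12 was at -0.084, Mrps11 at -0.13, Mrps18a at -0.20 and Ptcd2 at -0.10. With library sizes alone Mrps18a was at -0.0017 and Ptcd2 at -0.038. With the effective-length offset Polrmt was at 0.24 and Myc at 0.024, and with the replicate block Dap3 was at 0.012 and Myc at 0.11. With 1 library left out, Mrpl11 ranged from -0.071 to 0.19, Mrpl49 from -0.19 to 0.032, Mrps18a from -0.041 to 0.12, Myc from -0.24 to 0.081 and Ptcd2 from -0.083 to 0.12. None of these genes was called.

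With 3 libraries a group, differences such as the members' median of 1.26-fold were near the limit of what a single gene's test could call, the median SE of a log2 fold change being 0.15. A member that was not called was therefore not shown to be unchanged.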

Other observations

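Protein import brings in the mitochondrial ribosomal proteins, and respiratory complex I uses products of mitochondrial translation. Their genes also have short transcripts, with medians of 1270 and 727 bases, against 2349 bases over all genes tested. Of 28 import genes tested 4 rose and 0 fell, against 6.33% and 4.69% of all genes, with a median log2 fold change of 0.18. Timm13, a chaperone of the space between the membranes, rose (log2 fold change 0.53, adjusted p = 0.0102), as did the outer membrane translocase subunits Tomm6 (0.38, adjusted p = 0.0209) and Tomm7 (0.60, adjusted p = 0.0286). With the length covariate 1 of the 28 rose, where 3.24% of all genes did, and the median was -0.03. Of 36 Nduf genes of complex I, chosen by name, 19 rose and 0 fell, 35 had a log2 fold change above 0, and the median was 0.45. With the length covariate 1 of the 36 rose, again beside 3.24% of all genes, and the median was 0.16.

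Cytosolic ribosomal protein genes, with a median transcript length of 689 bases, had a median log2 fold change of 0.26 over 81 genes, 79 of them above 0. Of the 81, 5 rose (6.17%), where 6.33% of all genes tested did. With the length covariate 0 of the 81 rose, where 3.24% of all genes did. The median was then -0.03, where that of the 77 mitochondrial ribosomal protein genes was 0.11. Of 26 proliferation genes 0 rose and 0 fell, against 6.33% and 4.69% of all genes, with a median of -0.04.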
